A study of Homo sapiens with 12 samples.

Results

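MHC class I molecules display short peptides from the cytosol on the cell surface, where CD8+ T cells read them and where NK cells sense their absence. A heavy chain (HLA-B, HLA-C, HLA-E or HLA-F) folds with the light chain β2-microglobulin (B2M) and receives a peptide that the transporter TAP1/TAP2 has pumped into the endoplasmic reticulum, while tapasin (TAPBP) bridges the empty heavy chain to that transporter. Transcription of most of these genes depends on a promoter module bound by RFX, CREB/ATF and NF-Y proteins and by the transactivator NLRC5, and interferon γ raises it further. K562 cells are a standard NK cell target because they carry little class I on their surface.

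The 9 genes named above were read by symbol and Ensembl identifier from a table of 60671 genes, and 7 of them passed the filter on low counts along with 18626 genes in all. HLA-F and NLRC5 did not pass. HLA-B and HLA-C passed only through K/VP.5, since neither passed with K562 and K562/SSedit-2 alone: in those 8 libraries only 2 held 10 or more HLA-B reads and only 1 held 10 or more HLA-C reads.

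The 12 RNA-seq libraries came from 3 human leukemia lines, with 4 replicates each, from cells in mid-log phase. K562 is the parental line. K/VP.5 is a clone selected from K562 by exposure to etoposide, a poison of topoisomerase II, and is resistant to that drug. K562/SSedit-2 is a single clone of K562 in which CRISPR/Cas9 with homology-directed repair silenced the 5′ splice site of TOP2A intron 19 in some of its alleles. Each derived line is thus 1 clone, so a difference between lines cannot be told apart from a difference between clones, and p-values measure only the spread between libraries, because the labels do not say that these came from separate cultures.

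Library totals ran from 28981722 to 43648830 reads assigned to genes. The edited gene, TOP2A, lay between 352 and 488 CPM (read counts scaled to a common library size) for K562, 268 and 282 CPM for K/VP.5, and 177 and 208 CPM for the edited clone, ranges that did not overlap. All 10 erythroleukemia markers passed the filter, and their summed level was at least 3028 CPM in every library. K562 replicate 1 stood apart over all genes, with a chi-square statistic per degree of freedom of 62.3 to 65.6 against the other K562 libraries, which had 6.65 to 20.7 among themselves. K562 replicate 2 stood apart in low counts of some genes of other cell types, given with the HLA results. Every count of K562/SSedit-2 replicate 4 was an even number, whereas 44.3% to 45.8% of the non-zero counts were even in the other 11 libraries. Dividing that library by 2 changed no call among the 9 genes.

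The upstream sequences of the heavy chain genes and of B2M are shown because HLA-C and HLA-B rose in K/VP.5 while B2M did not. RefSeq promoters on GRCh38.p14 were matched for 7 of the 9 genes, and HLA-E and NLRC5 had no entry. Each stretch runs 5′ to 3′ on the gene's own strand from 195 to 41 bases before the RefSeq start. Capitals mark matches on either strand to an interferon regulatory factor element (AANNGAAA), an NF-κB site (GGGANTCCC), the core of the X2 box (TGACG) and the CCAAT box. In B2M 2 overlapping interferon elements form a single run of capitals.
HLA-C (chr6:31272133-31272287, minus strand): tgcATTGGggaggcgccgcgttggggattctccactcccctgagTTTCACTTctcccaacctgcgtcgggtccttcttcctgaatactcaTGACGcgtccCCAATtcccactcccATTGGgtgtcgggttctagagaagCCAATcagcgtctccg
HLA-B (chr6:31357220-31357374, minus strand): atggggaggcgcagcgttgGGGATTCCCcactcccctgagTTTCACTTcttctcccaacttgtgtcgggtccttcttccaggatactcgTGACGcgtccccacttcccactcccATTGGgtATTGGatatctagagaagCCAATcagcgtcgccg
HLA-F (chr6:29723239-29723393, plus strand): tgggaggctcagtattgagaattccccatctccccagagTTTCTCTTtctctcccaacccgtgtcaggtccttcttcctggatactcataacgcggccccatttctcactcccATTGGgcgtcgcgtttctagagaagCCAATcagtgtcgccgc
B2M (chr15:44711322-44711476, plus strand): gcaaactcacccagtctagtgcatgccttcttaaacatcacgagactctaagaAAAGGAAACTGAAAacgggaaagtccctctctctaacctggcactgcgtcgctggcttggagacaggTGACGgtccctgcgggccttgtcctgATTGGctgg

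HLA-C and HLA-B were 87.4% identical over these stretches, and HLA-F was 79.5% identical to HLA-C and 81.5% to HLA-B. B2M shared 45.8% to 47.3% of aligned bases with the 3 heavy chain genes. The NF-κB letters were found in HLA-B and not in the other promoters searched. The search covered the 250 bases before each RefSeq start. The NF-κB letters occur in 0.772% of all 35116 such windows, against 20.3% for the interferon element, 21.2% for the X2 core and 32.0% for CCAAT. HLA-C held the interferon element (TTTCACTT) 151 bases before its start and the X2 core 105 bases before it, and HLA-B held them 155 and 106 bases before its start. These matches are letters in a window of reference sequence, and binding was not measured here.

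HLA-C had the largest log2 fold changes of the 7 tested genes where K/VP.5 was compared. This gene (ENSG00000204525, GRCh38 chromosome 6, 31268749 to 31272130, minus strand) encodes a classical heavy chain that is also the main ligand of inhibitory KIR receptors on NK cells. Its counts in replicates 1 to 4 were 2, 28, 7 and 5 for K562, 447, 329, 342 and 288 for K/VP.5 and 9, 1, 4 and 0 for K562/SSedit-2. All 4 K/VP.5 libraries lay far above the other 8, and K562 and K562/SSedit-2 overlapped. As means these counts were 9.90 CPM ± 0.992 (SD, n = 4) in K/VP.5, 0.252 ± 0.267 in K562 and 0.101 ± 0.114 in K562/SSedit-2. HLA-C was 37.2-fold higher in K/VP.5 than in K562 (log2 fold change of 5.22, SE 0.41, adjusted p = 2.66e-08, edgeR's quasi-likelihood test, with p adjusted by Benjamini-Hochberg over the tested genes). Relative to K/VP.5 it was 94.9-fold lower in K562/SSedit-2 (log2 fold change of -6.57, SE 0.49, adjusted p = 1.19e-08, same test), a value that rests on 14 reads in the edited clone and became -7.55 without K562/SSedit-2 replicate 1. The log2 fold change between K562/SSedit-2 and K562 was -1.35 with a 95% interval from -3.02 to 0.32 (adjusted p = 0.301, edgeR), and the fit without a filter gave -1.38 with adjusted p = 0.0231, past the threshold.

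HLA-B also rose in K/VP.5, by much less. It encodes the other classical heavy chain measured here (ENSG00000234745, chromosome 6, 31353872 to 31367067, minus strand). Counts were 3, 37, 13 and 9 for K562, 58, 45, 41 and 29 for K/VP.5 and 7, 7, 1 and 4 for K562/SSedit-2. Scaled for depth the K/VP.5 libraries lay between 0.983 and 1.45 CPM, above the highest K562 library at 0.852 CPM, and the next K562 library was at 0.350 CPM. HLA-B was 3.12-fold higher in K/VP.5 than in K562 (log2 fold change of 1.64, SE 0.43, adjusted p = 0.00468, edgeR's quasi-likelihood test) and 8.68-fold lower in the edited clone than in K/VP.5 (log2 fold change of -3.12, SE 0.52, adjusted p = 9.91e-05). Against K562, K562/SSedit-2 had a log2 fold change of -1.48 (95% interval from -2.80 to -0.15) that did not pass the adjusted threshold (adjusted p = 0.139, edgeR), whereas the fit without a filter gave -1.501 with adjusted p = 0.00943, past it.

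The K562 level of both genes rested to a large part on 1 library. K562 replicate 2 held 28 of the 42 HLA-C reads and 37 of the 62 HLA-B reads of the 4 K562 libraries. The same library had the highest counts of several, not all, genes that mark other cells. DCN, a proteoglycan of fibroblasts, had 4, 37, 11 and 15 reads in K562 replicates 1 to 4, and LUM, another one, had 1, 11, 6 and 2. Among class II genes of antigen-presenting cells, there were 1, 14, 6 and 5 reads of HLA-DRA, 1, 11, 1 and 3 of HLA-DRB1 and 1, 12, 5 and 1 of HLA-DPA1. Summed over the 4 fibroblast markers, K562 lay between 4.56 and 12.1 CPM with replicate 2 highest. It was also highest for the class II and B cell lists (6.56 and 2.83 CPM), whereas replicate 1 was highest for the T and NK cell list (51.0 CPM, against 31.8 in replicate 2) and the monocyte list (2.78 CPM, against 2.51). The part of this library in the HLA results was not tested beyond leaving it out.

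**Figure D1:**
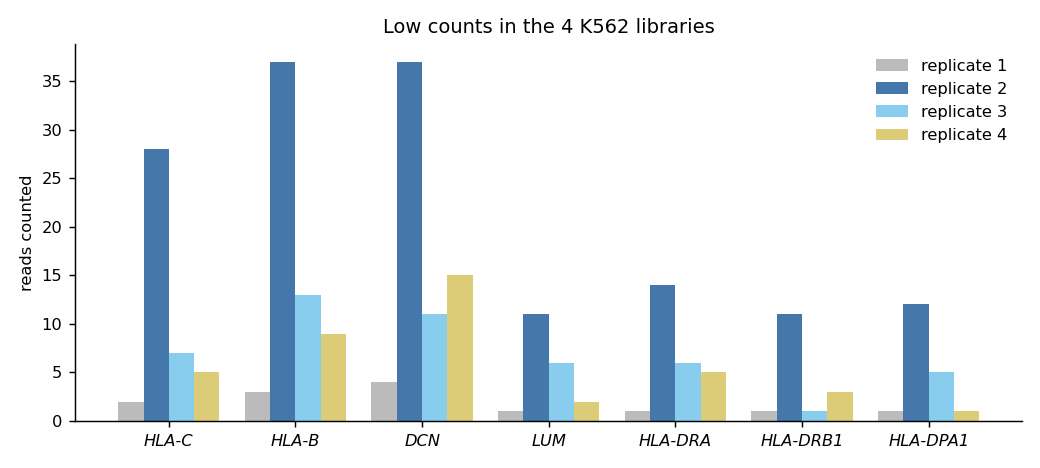
Reads counted (y axis) for 7 genes (x axis) in each of the 4 K562 libraries, 1 bar per library. Replicate 2 has the highest bar for every gene drawn, with 28 HLA-C, 37 HLA-B and 37 DCN reads, and replicate 1 the lowest or joint lowest.

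Without K562 replicate 2, the log2 fold change of HLA-C between K/VP.5 and K562 was 6.28 (adjusted p = 4.31e-09, edgeR) and that of HLA-B was 2.44 (adjusted p = 1.04e-04, edgeR). Both calls stood and both values were more than 1.5 times larger as folds. For the edited clone against K562, the log2 fold change moved to -0.26 for HLA-C (adjusted p = 0.894, edgeR) and to -0.66 for HLA-B (adjusted p = 0.555, edgeR). Leaving out K562 replicate 1, the library with the fewest HLA-B reads, gave HLA-B a log2 fold change of -1.79 in that comparison, which passed the threshold (adjusted p = 0.0235, edgeR). The call of HLA-B in K562/SSedit-2 against K562 thus changed with the K562 library left out and with the filter.

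A call required a 2-fold change and an adjusted p under 0.1. When K/VP.5 was set against K562, 2 of the 7 tested genes were called higher and 0 lower, beside 8.98% and 6.66% of all tested genes. Both called genes entered the test through the line in which they were high, so this count is not read against that share. With no fold limit, 2 of the 7 were higher and 4 were lower, beside 26.2% and 26.1% of all tested genes. Between K562/SSedit-2 and K562, 0 of the 7 were called in either direction by edgeR, where 0.805% of tested genes were called higher and 1.26% lower, and 0 passed with no fold limit, where 12.6% of tested genes did. With the replicate number as a block, TAPBP passed with no fold limit in that comparison (log2 fold change of -0.24, adjusted p = 0.0583, edgeR) and was lower in the edited clone in all 4 pairs. At an unadjusted p under 0.05, 2 of the 7 passed there (HLA-B and TAPBP), beside 22.7% of all tested genes, and DESeq2 called 1 (HLA-B, adjusted p = 0.0672) while limma called 0. Between K562/SSedit-2 and K/VP.5, 2 genes were lower and 0 higher (9.62% and 6.2% of tested genes), and with no fold limit 2 were lower and 4 higher (27.8% and 26.2%). The comparisons share libraries, so the calls are not independent of each other.

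**Figure D2:**
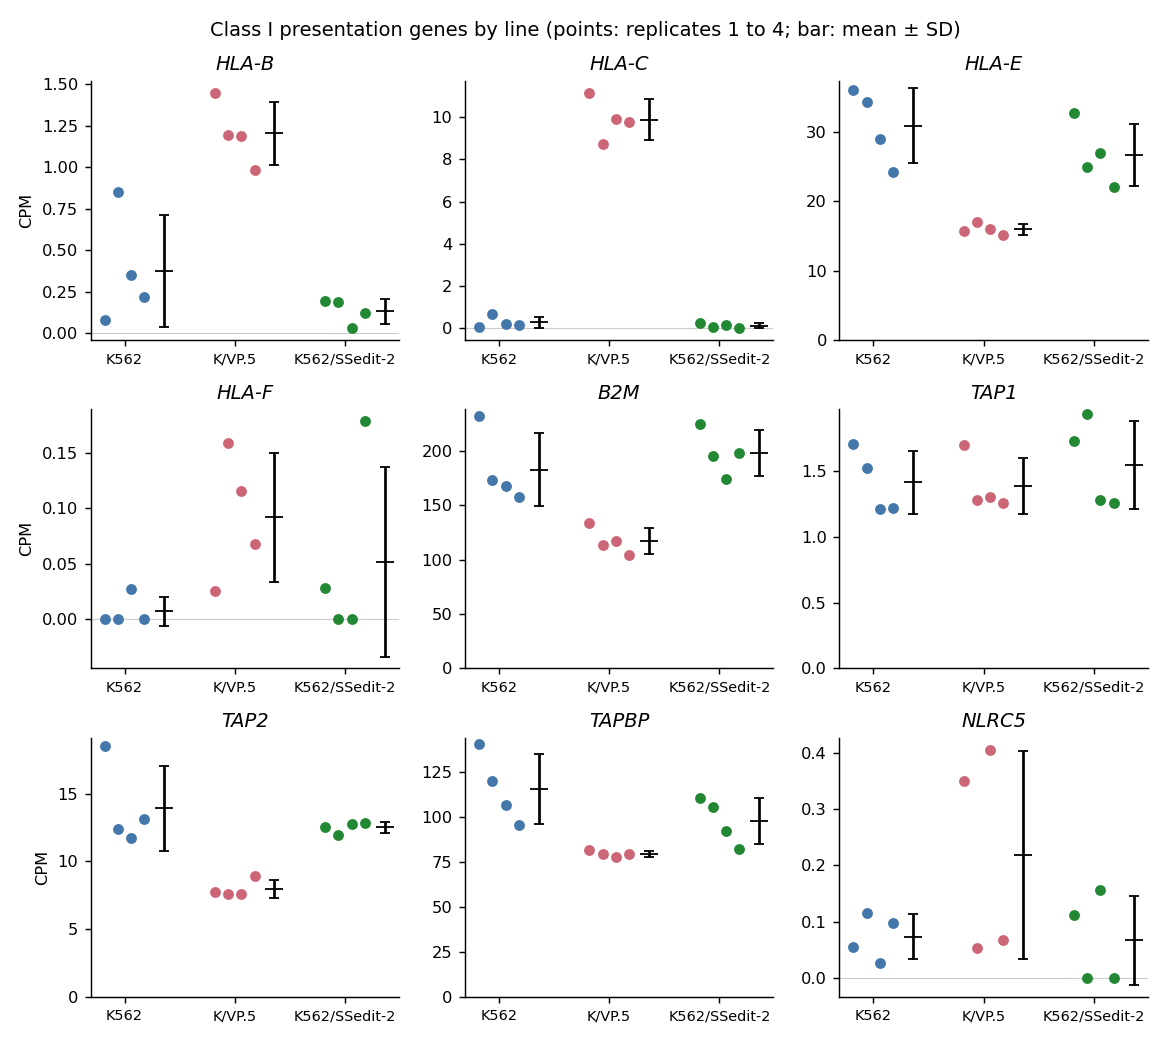
CPM (y axis, a separate linear scale per panel) of the 9 genes in the 3 lines (x axis), with 1 point per replicate in the order 1 to 4 and a bar for the mean ± SD. HLA-C lies between 8.75 and 11.2 CPM in K/VP.5 and at or below 0.644 CPM in all other libraries, while HLA-E, B2M, TAP2 and TAPBP are lowest in K/VP.5.

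HLA-E went the other way. It encodes a non-classical heavy chain that presents leader peptides of other class I molecules to the NK cell receptor CD94/NKG2A (ENSG00000204592, chromosome 6, 30489509 to 30494194, plus strand). K562 replicates 1 to 4 lay at 36.1, 34.4, 29.01 and 24.2 CPM, K/VP.5 at 15.7, 17.0, 16.0 and 15.2, and K562/SSedit-2 at 32.8, 24.9, 27.0 and 22.1. Every K/VP.5 library was below every other library, and the other lines overlapped. HLA-E fell by 0.95 on the log2 scale in K/VP.5 relative to K562 (SE 0.13, adjusted p = 1.25e-05, edgeR's quasi-likelihood test), just short of the 2-fold limit. Leaving out K562 replicate 3 or K562 replicate 4 brought it past that limit (-1.08 without replicate 4). Its log2 fold change from K562 to K562/SSedit-2 was -0.21 (95% interval from -0.50 to 0.07, adjusted p = 0.351, edgeR). It was lower in the edited clone in all 4 same-numbered pairs, and the fit with the replicate block gave adjusted p = 0.179 (edgeR).

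HLA-F, a non-classical heavy chain that can reach the surface as an open conformer (ENSG00000204642, chromosome 6, 29722775 to 29738528, plus strand), was close to the limit of detection. Counts were 0, 0, 1 and 0 for K562, 1, 6, 4 and 2 for K/VP.5 and 1, 0, 0 and 6 for K562/SSedit-2. A count of 0 allows up to 3 reads, or 0.0691 to 0.102 CPM, depending on the library, and this limit covers counting error only. The difference between K/VP.5 and K562 had p = 0.0571 in a two-sided exact permutation test on CPM (0.343 after Benjamini-Hochberg adjustment over 6 such tests), where the smallest p that 4 against 4 libraries allows is 0.029. The edgeR fit without a filter gave HLA-F a log2 fold change of 3.27 in that comparison (adjusted p = 0.0179).

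The makeup of the heavy chain transcripts differed in K/VP.5, while their summed level overlapped with that of the other lines. HLA-E made up 98.0% ± 1.60 (SD, n = 4) of the reads counted on the 4 heavy chain genes in K562, 99.0% ± 0.402 in K562/SSedit-2 and 58.8% ± 3.01 in K/VP.5. HLA-C made up 36.4% ± 3.02 in K/VP.5, 0.770% ± 0.714 in K562 and 0.330% ± 0.345 in K562/SSedit-2. The share of HLA-B was 4.42% ± 0.546 in K/VP.5 and 1.17% ± 0.897 in K562. Added up, the 4 genes came to 31.6 CPM ± 5.59 for K562, 27.2 ± 0.958 for K/VP.5 and 27.0 ± 4.60 for K562/SSedit-2. These shares are of reads, not of molecules, and count the heavy chain genes described here only.

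**Figure D3:**
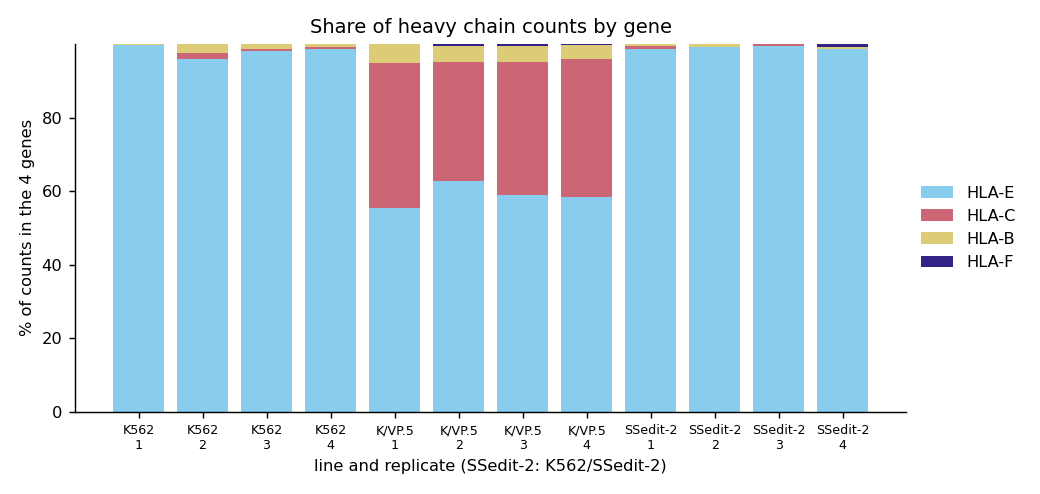
Percent of the reads counted on HLA-E, HLA-C, HLA-B and HLA-F (y axis, stacked to 100%) in each of the 12 libraries (x axis, line and replicate). HLA-E takes 95.8% or more in K562 and K562/SSedit-2 and 55.4% to 62.7% in K/VP.5, where HLA-C takes 32.3% to 39.4%.

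The light chain B2M (ENSG00000166710, chromosome 15, 44711358 to 44718851, plus strand) was the most abundant of the 9 transcripts. It lay at 232, 174, 168 and 157 CPM for K562, 134, 113, 117 and 104 for K/VP.5 and 225, 195, 174 and 198 for K562/SSedit-2. The K/VP.5 libraries were below all others. B2M fell by 0.64 on the log2 scale in K/VP.5 relative to K562 (SE 0.11, 95% interval from -0.90 to -0.38, adjusted p = 2.04e-04, edgeR's quasi-likelihood test) and did not reach the 2-fold limit. Between K562/SSedit-2 and K562 its log2 fold change was 0.12 (95% interval from -0.14 to 0.37, adjusted p = 0.598, edgeR). Per kilobase of exon, B2M stood at 5.47 ± 0.685 times the summed heavy chains in K562, 3.87 ± 0.265 times in K/VP.5 and 6.98 ± 1.04 times in K562/SSedit-2 (SD, n = 4). Across the 12 libraries, the levels most like those of B2M among 13665 genes were those of TLR5, SNRPD2 and DSTN, with Pearson r of 0.988, 0.987 and 0.986 on log2 CPM. These points share 3 lines, so the likeness follows the line means to a large part and is given as a description.

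The peptide transporter's subunits are encoded side by side in the class II region. TAP2 (ENSG00000204267, chromosome 6, 32821833 to 32838739, minus strand) lay at 18.6, 12.4, 11.7 and 13.1 CPM for K562, 7.72, 7.58, 7.59 and 8.95 for K/VP.5 and 12.5, 11.98, 12.8 and 12.8 for K562/SSedit-2. All K/VP.5 libraries were below all others. Its fall in K/VP.5 relative to K562 was 0.81 on the log2 scale (log2 fold change of -0.81, SE 0.13, adjusted p = 7.02e-05, edgeR's quasi-likelihood test). TAP1 (ENSG00000168394, chromosome 6, 32845209 to 32853816, minus strand) ranged over 1.21 to 1.70 CPM for K562, 1.25 to 1.70 for K/VP.5 and 1.25 to 1.93 for K562/SSedit-2, and the 3 lines overlapped. Its log2 fold change between K/VP.5 and K562 was -0.02 with a 95% interval from -0.47 to 0.42 (adjusted p = 0.933, edgeR), and its sign changed with the scaling. No test of TAP1 against TAP2 was made.

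The tapasin gene TAPBP (ENSG00000231925, chromosome 6, 33299694 to 33314284, minus strand) had levels of 141, 120, 107 and 95.5 CPM for K562, 81.6, 79.5, 77.6 and 79.3 for K/VP.5 and 110, 106, 92.4 and 82.0 for K562/SSedit-2. K/VP.5 was lowest, with the smallest spread, and K562/SSedit-2 lay between the lines, its lowest library next to the highest of K/VP.5. TAPBP fell by 0.54 on the log2 scale in K/VP.5 relative to K562 (SE 0.11, adjusted p = 5.97e-04, edgeR's quasi-likelihood test). Relative to K/VP.5 it was higher in K562/SSedit-2 by a log2 fold change of 0.30 (SE 0.11, adjusted p = 0.0341, edgeR). HLA-E, B2M and TAP2 were also above K/VP.5 in the edited clone, by 0.74, 0.76 and 0.66 on the log2 scale, with adjusted p of 1.56e-04, 3.77e-05 and 5.03e-04 (edgeR). None of these 4 reached 2-fold. K562 replicate 1 had the highest K562 level of HLA-E, B2M, TAP2 and TAPBP, and without it their log2 fold changes in K/VP.5 against K562 were -0.89, -0.52, -0.66 and -0.46 (adjusted p = 6.75e-06, 5.12e-05, 6.98e-06 and 4.24e-04, edgeR).

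**Figure D4:**
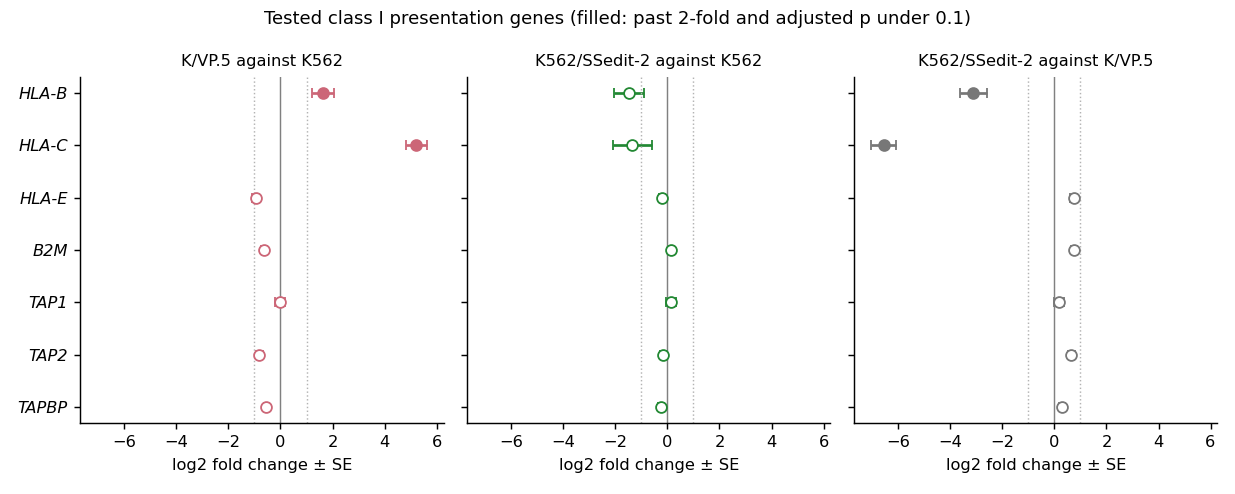
Log2 fold change ± SE (x axis, the same scale in each panel) of the 7 tested genes (y axis) in the 3 comparisons, first line minus second, with dotted lines at 2-fold and filled points where the change passed both limits. HLA-B and HLA-C are filled and on the opposite side of 0 from HLA-E, B2M, TAP2 and TAPBP wherever K/VP.5 is compared, and no point is filled for K562/SSedit-2 against K562.

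NLRC5, the transactivator of class I genes (ENSG00000140853, chromosome 16, 56989485 to 57083531, plus strand), was barely detected. Counts were 2, 5, 1 and 4 for K562, 14, 2, 14 and 2 for K/VP.5 and 4, 0, 5 and 0 for K562/SSedit-2. Of the K/VP.5 libraries 2 were above all others and 2 were inside their range. The difference between K/VP.5 and K562 had p = 0.314 in the two-sided exact permutation test (adjusted p = 0.514 over the 6 tests). The edgeR fit without a filter gave NLRC5 a log2 fold change of 1.51 in that comparison (adjusted p = 0.0485) and of -1.73 in K562/SSedit-2 against K/VP.5 (adjusted p = 0.0266), both past the threshold.

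Per kilobase of exon, the order of mean levels in K562 was B2M (58.5 CPM per kb), TAPBP (17.4), HLA-E (10.6), TAP2 (1.35), TAP1 (0.298), HLA-C (0.101), HLA-B (0.0813), NLRC5 (0.00594) and HLA-F (0.00156). HLA-C and HLA-B in that order overlapped in their spread, as did NLRC5 and HLA-F in counts near 0. In K/VP.5 HLA-C rose to the fourth place with 3.95 CPM per kb, above TAP2 at 0.768, and HLA-E stood at 5.47. In K562/SSedit-2 HLA-E stood at 9.14 and HLA-C at 0.0402 CPM per kb. Exon lengths are unions over all annotated transcripts, so genes with long minor isoforms, such as HLA-B, come out low.

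Of the 7 tested genes, 6 lie in the MHC region of chromosome 6, and few of the genes around them changed 2-fold. Of 104 other tested protein-coding genes of the region, 2 were called higher and 3 lower for K/VP.5 against K562 (1.92% and 2.88%, beside 8.98% and 6.66% of all tested genes), with a median log2 fold change of -0.11. With no fold limit, 16 of the 104 were higher and 36 lower (15.4% and 34.6%, beside 26.2% and 26.1%). TRIM26, a ubiquitin ligase gene of the tripartite motif family, had 0, 5, 1 and 0 reads for K562, 287, 231, 192 and 187 for K/VP.5 and 3, 3, 0 and 0 for K562/SSedit-2. Like HLA-C, it was near 0 in 2 lines and entered the test through K/VP.5, where it was high (log2 fold change of 7.26, adjusted p = 6.94e-10, edgeR). ATP6V1G2, encoding a subunit of the vacuolar ATPase, was the other higher gene (log2 fold change of 1.01, adjusted p = 0.0390, edgeR). It had 8, 13, 3 and 5 reads for K562, 10, 13, 16 and 13 for K/VP.5 and 7, 9, 5 and 10 for K562/SSedit-2. This gene too rested on K/VP.5 to enter the test. GPSM3 was lower by a log2 fold change of -1.73, HSD17B8 by -1.05 and OR2H2 by -2.29. Between K562/SSedit-2 and K562, 0 of the 104 were called by edgeR, beside 0.805% of all tested genes higher and 1.26% lower. With no fold limit 3 were higher and 13 lower (2.88% and 12.5%). Over all 18626 tested genes, 905 were higher and 1451 lower with no fold limit (12.6% in either direction). Around B2M, within 1 Mb on chromosome 15, 1 of 20 tested genes was higher (SLC30A4, a zinc transporter, log2 fold change of 4.29) and 1 lower (TRIM69, at -1.70) in K/VP.5 against K562. Around NLRC5, within 1 Mb on chromosome 16, 4 of 23 were higher and 2 lower, among them KIFC3 at -1.33, CPNE2 at 1.23, MT2A at -1.78, GNAO1 at 3.48 and TEPP at 1.52. GNAO1 and TEPP had at most 10 reads in any K562 library and, like TRIM26, rested on K/VP.5 to enter the test.

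**Figure D5:**
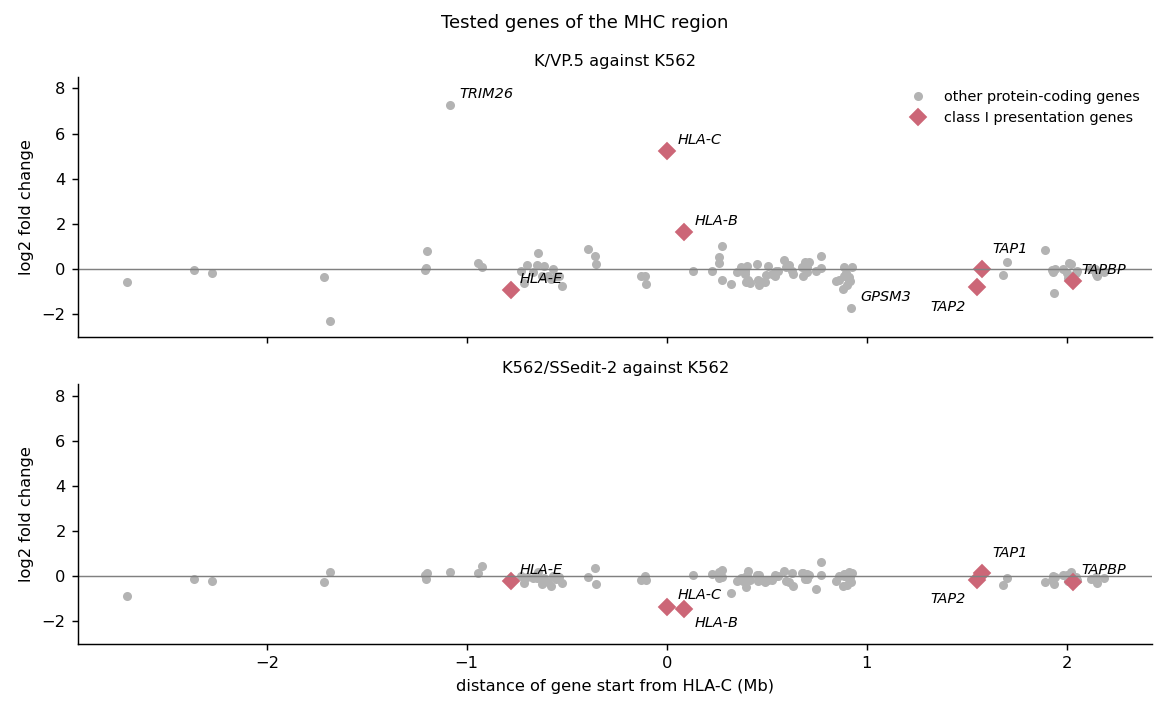
Log2 fold change (y axis, same scale in both panels) of tested protein-coding genes of the MHC region by the distance of their start from that of HLA-C (x axis, Mb), for K/VP.5 against K562 (top) and K562/SSedit-2 against K562 (bottom). In the top panel HLA-C at 5.22 and TRIM26 at 7.26 stand far above neighbours that mostly lie near 0, and in the bottom panel no gene passes the threshold.

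Class I pseudogenes share sequence with the heavy chain genes, and how reads mapping to several places were counted was not given in the sources used here, so HLA counts are uncertain. Of 8 pseudogenes, only HLA-J passed the filter, with 10 or more reads in all 4 K/VP.5 libraries and in 1 of the other 8. HLA-K had 1, 3, 1 and 2 reads for K562, 13, 11, 21 and 7 for K/VP.5 and 2, 4, 0 and 0 for K562/SSedit-2. HLA-J had 5, 8, 8 and 13, then 15, 18, 17 and 11, then 5, 6, 7 and 0 reads in the same order of lines. HLA-J differed between K/VP.5 and K562 by a log2 fold change of 0.99 (adjusted p = 0.0597, edgeR), and the edited clone stood at -1.70 against K/VP.5 (adjusted p = 0.00585, edgeR). K/VP.5 had 288 to 447 reads of HLA-C and 29 to 58 of HLA-B per library beside these. The part of shared reads in the HLA results was not tested. HLA-G, which is normally a heavy chain of the placenta, had at most 2 reads in any library.

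Other steps of the pathway were read from the lists of proteasome, loading and trimming genes. Of the 5 immunoproteasome genes, PSMB8 and PSMB9, which encode interferon-induced catalytic subunits, were under the filter with at most 3 and 16 reads in any library. PSMB10, PSME1 and PSME2 passed the filter, and none was called on the log2 fold change between K/VP.5 and K562. In that comparison 8.98% of all tested genes were called higher and 6.66% lower. With no fold limit all 3 were lower, beside 26.1% of all tested genes, with PSMB10 at -0.44 (adjusted p = 0.0593, edgeR). PSME1 and PSME2, encoding the PA28 activator of the proteasome, stood at -0.81 and -0.63 on that scale (adjusted p = 2.81e-06 and 4.83e-05, edgeR). None of the 7 loading and trimming genes was called in any comparison, and for so few genes that lies near the shares over all tested genes (8.98% and 6.66% for K/VP.5 against K562). Among them ERAP1, an aminopeptidase that trims peptides, had a log2 fold change of -0.35 in K/VP.5 relative to K562 (adjusted p = 4.48e-04), whereas the chaperones CALR and PDIA3 stood at 0.29 and 0.30 (adjusted p = 0.00222 and 2.92e-04, edgeR).

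Among 13 regulators, 1 was called higher and 1 lower in K/VP.5 relative to K562, beside 8.98% and 6.66% of all tested genes. With no fold limit 2 were higher and 9 lower, beside 26.2% and 26.1%. RFXAP, a subunit of the RFX complex of the class I and class II promoter module, had 200, 219, 178 and 225 reads for K562, 456, 425, 415 and 341 for K/VP.5 and 162, 189, 145 and 164 for K562/SSedit-2. It was 2.22-fold higher in K/VP.5 than in K562 (log2 fold change of 1.15, SE 0.09, adjusted p = 4.10e-08, edgeR). NFKB1, the p50 subunit of NF-κB, had 4980, 6133, 5340 and 5952 reads for K562, 2475, 2305, 2162 and 1869 for K/VP.5 and 4706, 4764, 4228 and 4880 for K562/SSedit-2. Its log2 fold change was -1.19 (SE 0.06, adjusted p = 7.17e-11, edgeR). The interferon regulatory factors IRF1 and IRF2, an activator and mainly a repressor, stood at 0.88 and -0.94 (adjusted p = 1.87e-05 and 2.44e-06, edgeR). In the edited clone none of the 13 was called against K562, beside 0.805% of all tested genes higher and 1.26% lower. RFX5 alone passed with no fold limit (log2 fold change of -0.18, adjusted p = 0.0863, edgeR), beside 12.6% of all tested genes. Set against K/VP.5, the edited clone had IRF2 and NFKB1 higher, by 1.04 and 1.11 on the log2 scale, and RFXAP at -1.28 (adjusted p = 7.41e-07, 1.61e-10 and 1.30e-08, edgeR). In that comparison 6.2% of all tested genes were called higher and 9.62% lower.

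None of the 4 genes of the interferon γ receptor and its kinases was called in any comparison. For so few genes that lies near the shares over all tested genes (8.98% and 6.66% for K/VP.5 against K562). With no fold limit, JAK2 alone passed in K/VP.5 against K562 (log2 fold change of 0.37, adjusted p = 4.83e-05, edgeR), where 26.2% of all tested genes were higher. In the edited clone against K562, JAK1 at 0.27, JAK2 at 0.23 and IFNGR2 at -0.49 passed (adjusted p = 0.0614, 0.0192 and 0.0769, edgeR), beside 12.6% of all tested genes. The genes SUSD6, TMEM127 and WWP2, whose products send class I molecules for degradation, were lower in K/VP.5 with no fold limit (-0.61, -0.30 and -0.24 on the log2 scale, adjusted p = 4.03e-06, 0.00105 and 0.00436, edgeR), beside 26.1% of all tested genes, but none reached 2-fold.

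Of the 5 class I-like genes, FCGRT, the neonatal Fc receptor that also pairs with B2M, had 134, 116, 91 and 83 reads for K562, 332, 266, 228 and 176 for K/VP.5 and 48, 39, 37 and 26 for K562/SSedit-2. The 3 lines did not overlap. It was called in all 3 comparisons, with log2 fold changes of 1.37 for K/VP.5 against K562, -1.32 for K562/SSedit-2 against K562 and -2.69 for K562/SSedit-2 against K/VP.5 (adjusted p = 1.09e-05, 8.21e-04 and 1.45e-08, edgeR). MR1 and HFE were not called in any comparison.

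Among 8 genes of ligands of NKG2D, the activating receptor of NK cells, 4 passed the filter and 2 of these were called higher in K/VP.5 than in K562, where 8.98% of all tested genes were. ULBP2 had 85, 95, 74 and 81 reads for K562, 351, 340, 305 and 283 for K/VP.5 and 78, 93, 77 and 68 for K562/SSedit-2. That was a 4.27-fold difference between K/VP.5 and K562 (log2 fold change of 2.09, SE 0.12, adjusted p = 3.30e-10, edgeR). ULBP1 had a log2 fold change of 1.14 (adjusted p = 5.88e-04, edgeR). MICA and MICB stood at -0.08 each, with adjusted p of 0.388 and 0.552 (edgeR). None of the 4 was called between K562/SSedit-2 and K562, beside 0.805% of all tested genes higher and 1.26% lower. ULBP2 and ULBP1 stood at -1.99 and -1.42 on the log2 scale in the edited clone against K/VP.5 (adjusted p = 6.31e-10 and 9.42e-05, edgeR), where 9.62% of all tested genes were called lower.

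Of 10 class II genes, 7 were under the filter. CD74, the invariant chain, summed to 324 reads over the 4 K562 libraries, 342 in K/VP.5 and 273 in the edited clone, and HLA-DMA, a peptide exchange factor subunit, to 100, 72 and 66, and neither was called in any comparison. CIITA, the class II transactivator and a relative of NLRC5, had 34, 77, 54 and 70 reads for K562, 121, 144, 91 and 98 for K/VP.5 and 53, 45, 54 and 72 for K562/SSedit-2. It was higher in K/VP.5 than in K562 (log2 fold change of 1.12, SE 0.21, adjusted p = 3.62e-04, edgeR). HLA-DRA had 1 read in each K/VP.5 library, and HLA-DRB1 had 0, 0, 1 and 0.

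Markers of other cell types were read beside these results. Among 7 T and NK cell markers, CD3D was abundant in the parental line, with 954 to 1844 reads in K562 and 193 to 401 in K/VP.5, whereas CD8A and CD2 had at most 1 read in any library. The summed list ran from 23.7 to 51.0 CPM in K562, from 7.42 to 11.2 in K/VP.5 and from 37.2 to 53.3 in the edited clone. The 4 B cell markers summed to between 1.47 and 2.83 CPM in all lines, with MS4A1 at 0 in K/VP.5 and K562/SSedit-2. The 4 monocyte markers summed to between 1.22 and 3.32 CPM. Of these, LYZ and ITGAM were called in opposite directions, at log2 fold changes of -2.27 and 1.51 in K/VP.5 against K562, and of 1.88 and -2.01 in the edited clone against K/VP.5. The 4 fibroblast markers summed to 46.4 to 58.3 CPM for K/VP.5 and 4.47 to 8.37 CPM for K562/SSedit-2, through COL1A1 and COL1A2, which differed by 3.11 and 2.72 on the log2 scale between K/VP.5 and K562, while DCN had at most 10 reads in a K/VP.5 library. The part of other cells in the HLA-C and HLA-B levels of K/VP.5 was not tested. In bulk RNA a change in the share of cells that express a gene and a change of its RNA per cell cannot be told apart.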

How the data were processed

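The 12 RNA-seq libraries were 4 of each line (the parental K562, K/VP.5, the edited clone K562/SSedit-2). The authors mapped paired-end reads to GRCh38 with HISAT2 and deposited raw featureCounts counts, whole numbers per gene and library. The annotation release, the strand setting and the treatment of multiply mapped reads were not given in the sources used here. Gene positions and exon lengths were taken from GENCODE 44.

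Genes were filtered with filterByExpr of edgeR 4.0.16 (minimum count of 10, R 4.3.3), scaled by TMM, and fitted over all 12 libraries by line with the quasi-likelihood test and Benjamini-Hochberg adjustment over 18626 genes. A call was a 2-fold change, the cutoff of the study, with adjusted p under 0.1. CPM used the reads in tested genes times the TMM factor. The SE was the log2 fold change over the square root of F, and 95% intervals used the residual degrees of freedom of the lines. HLA-F and NLRC5 were compared by exact permutation tests. Alternatives were DESeq2 1.42.0, limma 3.58.1 voom, other scalings and filters, a replicate block and leaving out each library. In data simulated from the gene means over all 12 libraries, with changes placed in K/VP.5, 194 of 200 changed genes were recovered among 18183 tested, with 4 false calls. Every simulated gene had the same dispersion. The recovery therefore does not cover genes of few and uneven reads, such as HLA-B and HLA-C in K562. The limit of 3 reads at a count of 0 covers counting error only.

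Replicate numbers come from the sample titles. After subtracting line means, samples of the same number correlated at 0.135 to 0.292 in all 4 pairs of K562/SSedit-2 and K562, but not in all pairs of the other comparisons. The main fit left this pairing out in every comparison, so its p-values are unpaired. The replicate block was run as an alternative only. No replicates were duplicates by a chi-square test of their counts. The 9 genes and the other gene lists were chosen with earlier results of these data known. The text names all 9 genes, the called genes of each other list or else its most changed one, up to 5 called neighbours of highest level, and the 3 genes most like B2M. Other names, such as those beside K562 replicate 2, were chosen after their values were seen.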

Additional observations from a re-analysis of the deposited data

Results flagged for a closer look

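In 4 of the 27 groups of 4 libraries examined (9 genes in 3 lines), 1 library lay far from the other 3 by Dixon's criterion, which chance meets in about 1 of 20 groups. HLA-F in K562 replicate 3 had 0.0269 CPM, which is 1 read where the others had 0, and a single read among zeros always meets this criterion, so the chance rate does not hold for HLA-F. HLA-F in K562/SSedit-2 replicate 4 had 0.179 CPM from 6 reads, and the next library had 0.0279 CPM. All counts of that library were even, so these 6 reads would be 3 if it were divided by 2. TAP1 in K/VP.5 replicate 1 had 1.70 CPM and the next library 1.30. TAP2 in K/VP.5 replicate 4 had 8.95 CPM and the next library 7.72, still below every K562 library. The cause of these values was not tested.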

How the results depend on the processing

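The calls of HLA-C and HLA-B in K/VP.5 against K562 and in K562/SSedit-2 against K/VP.5 held under every alternative run, with log2 fold changes of HLA-C from 4.89 to 6.28 and of HLA-B from 1.31 to 2.44 in the first comparison. Leaving out K562/SSedit-2 replicate 1 moved HLA-C in K562/SSedit-2 against K/VP.5 to -7.55. The number of the 9 genes called was 2, 0 and 2 in K/VP.5 against K562, K562/SSedit-2 against K562 and K562/SSedit-2 against K/VP.5. It became 4, 2 and 3 with no filter, 6, 0 and 6 with no fold limit, and 1 in K562/SSedit-2 against K562 with DESeq2. Leaving out 1 library gave 2 to 3, 0 to 1 and 2 to 2, the highest through HLA-E without K562 replicate 3 or 4 and HLA-B without K562 replicate 1. The replicate block changed no 2-fold call, with 2, 0 and 2 genes called, but TAPBP passed with no fold limit in K562/SSedit-2 against K562 (adjusted p = 0.0583, edgeR). TAP1 in K/VP.5 against K562 turned from -0.02 to 0.0468 with upper-quartile scaling and 0.0022 with at least 1 CPM in 4 samples, and ranged from -0.153 to 0.0549 without single libraries. TAP2 in K562/SSedit-2 against K562 ranged from -0.225 to 0.0163 without single libraries. The cause was not tested. All counts of HLA-C and HLA-B were under 40 in K562 and K562/SSedit-2, and their log2 fold changes there were called with no filter (-1.38 and -1.501). With only the 2 lines compared, HLA-B and HLA-C did not pass the filter in K562/SSedit-2 against K562. Over all tested genes, 2914, 384 and 2945 were called in the 3 comparisons, against 9747, 2356 and 10055 with no fold limit, and 1923 and 246 in the first and second with at least 1 CPM in 4 samples. Dividing K562/SSedit-2 replicate 4 by 2 was an alternative chosen after seeing the data.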
